A study of Rattus norvegicus with 6 samples.

Results

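The miRNA precursors rno-mir-146a, rno-mir-146b, rno-mir-155, rno-mir-221 and rno-mir-222 were followed in AR42J cells, an established rat cell line labelled as exocrine pancreas. They were chosen by name as miRNAs tied to inflammation, and all 5 had reads among the 383 precursors with a read in these libraries. Small RNA was sequenced from 3 libraries of untreated cells and 3 libraries of cells given 200 µM sodium taurocholate for 30 min. Taurocholate is a bile salt with which acute pancreatitis is modelled. Both groups were grown in the same serum-containing medium, and their RNA went through the same removal of end groups and methyl marks before library preparation. The labels name no separate cultures behind the replicates, so the p-values below measure the spread between libraries, which may be technical.

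A miRNA precursor folds into a hairpin from which Dicer cuts a 5p arm and a 3p arm, and the arm loaded into Argonaute finds target mRNAs mainly through its seed, bases 2 to 8. miR-146a is transcribed under NF-κB and represses the adaptors Traf6 and Irak1 of Toll-like receptor signalling, a negative feedback on inflammation. miR-155 comes from the noncoding transcript Mir155hg, which inflammatory signals induce in many cells. miR-221 and miR-222 are made from neighbouring hairpins and are known for repressing the cell cycle inhibitor gene Cdkn1b.

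The mature sequences show which of these miRNAs can be told apart by their reads and which share a seed. They are those of RefSeq (assembly GRCr8, all 5 precursors matched), 5′ to 3′, with the seed in capitals. The 5p arms of miR-146a and miR-146b have the seed GAGAACU and differ over 22 bases at 2 positions counted from the 5′ end, G18A and U21C from miR-146a to miR-146b:
miR-146a-5p: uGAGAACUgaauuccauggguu
miR-146b-5p: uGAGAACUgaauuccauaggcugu
The 3p arms of miR-221 and miR-222 have the seed GCUACAU, and 11 of the 21 bases compared were identical:
miR-221-3p: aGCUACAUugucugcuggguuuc
miR-222-3p: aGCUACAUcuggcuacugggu
The 5p arm of miR-155 has a seed of its own, UAAUGCU:
miR-155-5p: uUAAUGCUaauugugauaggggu
In that assembly the mir-146a hairpin lies at chr10:28349996-28350090 on the minus strand, within the span of a long noncoding RNA gene (LOC134480673). The mir-146b hairpin lies at chr1:255144860-255144947 on the plus strand, within the span of the protein-coding gene C1h10orf95. The mir-155 hairpin lies at chr11:37261114-37261178 on the plus strand, within the span of Mir155hg. The mir-222 hairpin (chrX:6022621-6022723) and the mir-221 hairpin (chrX:6023182-6023290) lie on the plus strand with 458 bases between them, within the spans of 2 long noncoding RNA genes (LOC120099382 and LOC120099384). Exon or intron placement was not determined for any of them.

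Reads aligned to miRNA precursors numbered 2791878 to 3987307 per library. As a check of the label, the acinar miRNA miR-148a took 284171 to 421894 reads per 1000000 miRNA reads (CPM), but the other 3 exocrine markers, miR-216a, miR-216b and miR-217, had 0 to 4 reads in any library. Among blood and immune markers, 6 of 6 had reads in at least 1 library, with a summed level of 2833 to 4790 CPM in the untreated against 2774 to 4631 CPM in the taurocholate libraries. miR-142, a marker of blood cells, gave most of this in all libraries, and miR-223, the myeloid marker, had 1 to 13 reads. miR-144-3p (0 to 9.07 CPM) and miR-150-5p (0.752 to 8.24 CPM) were rare as well. Taurocholate library 1 stood apart in its read ends: 22.1% of its miRNA reads had a mismatched G as their last base, against 5.32% in untreated library 1 and 1.20% to 1.89% in the other 4.

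miR-146b-5p was the most abundant of these arms, followed by miR-221-3p and miR-222-3p, and this order held in 6 of 6 libraries. Their mean levels over all libraries were 5261, 4016 and 3029 CPM, ranks 22, 25 and 32 of the 342 miRNA features tested. Next to miR-146b-5p in rank stood miR-27b-3p and miR-30e-5p. miR-155-5p, at 334 CPM, lay 9.06-fold below miR-222-3p, with no overlap between libraries. miR-155-5p and miR-221-5p (282 CPM) did not differ beyond their spread, and miR-155-5p was the higher in 5 of 6 libraries. miR-222-5p (52.4 CPM) and miR-146a-5p (40.9 CPM) overlapped, as did miR-146b-3p (13.01 CPM) and miR-155-3p (9.48 CPM). No read was assigned to miR-146a-3p, 0 of 807 reads exclusive to that precursor, which allows a share of up to 0.372%.

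**Figure D1:**
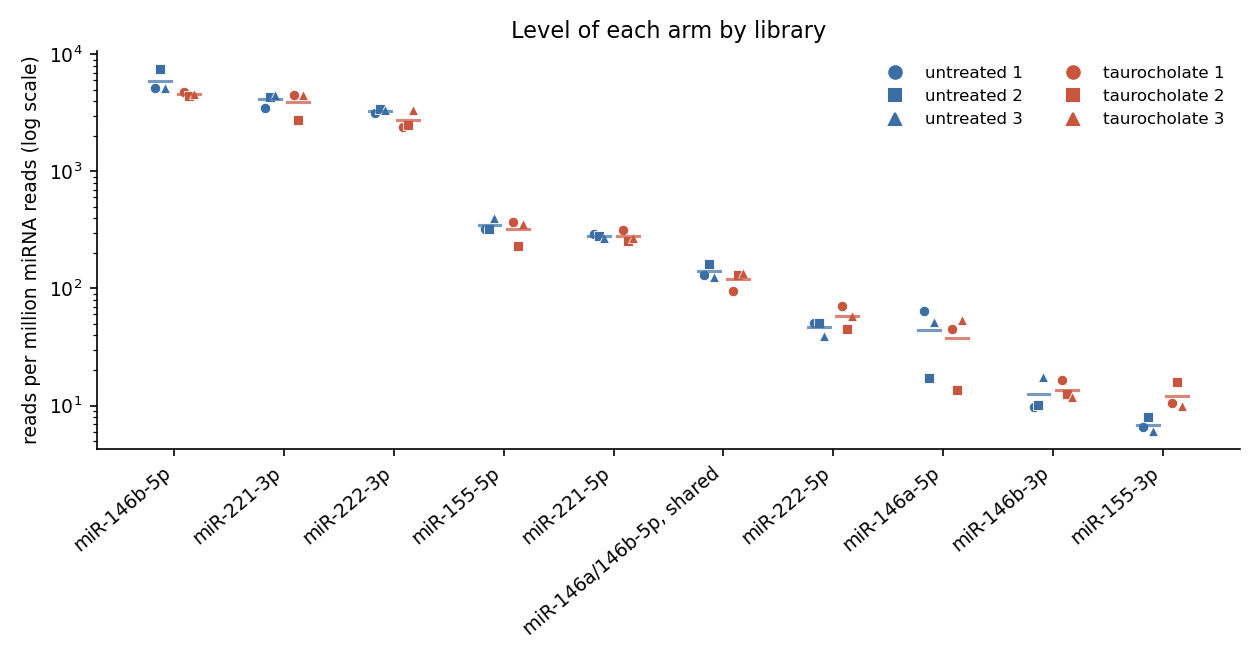
Level of each arm in CPM on a log axis. Each point is 1 library, bars are group means, and 1 column holds reads that match miR-146a-5p and miR-146b-5p equally. The 3 main arms lie between 2382 and 7527 CPM, and miR-146a-5p is lowest in the libraries numbered 2 of both groups.

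None of these arms was called as changed between untreated and taurocholate libraries by edgeR's quasi-likelihood test. Of 342 miRNA features tested, 0 (0%) had a Benjamini-Hochberg adjusted p under 0.05, the smallest adjusted p was 0.141, and 58 had an unadjusted p under 0.05. All 10 features of these precursors with reads were tested, counting the shared miR-146 reads as 1 of them. Their log2 fold changes, taurocholate over untreated, were above 0 for 3 and below 0 for 7, with a median of -0.17, beside 156 above, 186 below and a median of -0.04 over all features. DESeq2 called 20 of the 342 (5.85%), 8 higher and 12 lower, and none of them was one of these arms. It gave no adjusted p for 4 of the 10 and at least 0.230 for the others.

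**Figure D2:**
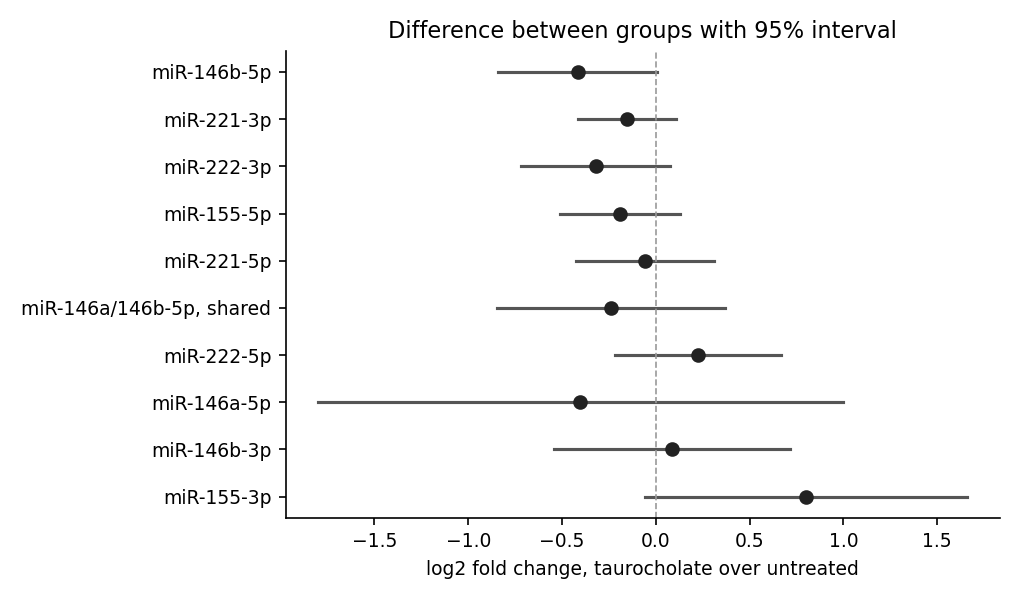
Log2 fold change, taurocholate over untreated, for the 10 features, with the 95% interval of the unpaired edgeR fit. Every interval reaches across 0, and those of miR-146a-5p and miR-155-3p are the widest.

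miR-146b-5p stood at 5123, 7527 and 5176 CPM in the untreated libraries, against 4797, 4389 and 4555 CPM with taurocholate. All 3 taurocholate libraries were below all untreated ones, and untreated library 2 was far above the rest. Groups without overlap in CPM, in either direction, came in 47 of the 342 features (13.7%). The log2 fold change was -0.42 ± 0.18 (SE, n = 3 per group) with an adjusted p of 0.299 by edgeR, and its 95% interval ran from -0.84 to 0.01. With 1 library left out, it ran from -0.54 (without untreated replicate 3, 95% interval -0.96 to -0.11) to -0.19 (without untreated replicate 2). The interval also lay below 0 without taurocholate replicate 2 (-1.02 to -0.0048). So it did with reads of 20 to 25 nt, and with reads matching several miRNAs left out or counted for each. The edgeR adjusted p was at least 0.265 in all of these. The passenger arm miR-146b-3p had 30, 40 and 49 reads in the untreated against 55, 47 and 43 in the taurocholate libraries, with overlapping groups when scaled to depth and a log2 fold change of 0.09 ± 0.26 (SE; edgeR adjusted p 0.900) that ran from -0.0091 to 0.36 with 1 library left out, the ends being without untreated replicate 2 and untreated replicate 3.

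miR-146a-5p, the NF-κB-induced relative with the same seed, was rare and uneven. Its exclusive reads gave 64.2, 17.3 and 51.6 CPM in the untreated against 44.9, 13.5 and 53.9 CPM in the taurocholate libraries. The low values were those of replicate 2 in each group. In the same 2 libraries miR-126a, an endothelial miRNA, stood at 12.5 and 48.7 CPM, against 234 to 475 CPM in the other 4. miR-451, a red cell miRNA, stood there at 34.4 and 32.5 CPM, against 191 to 1148 CPM. Both markers were picked after the levels had been seen, and of 18 tested marker arms of blood, stroma, muscle and endothelium, 5 were lowest in these 2 libraries and 13 were not. Among the 13, the blood cell marker miR-486-5p stood there at 1011 and 822 CPM, against 757 to 1046 CPM, and the stromal miR-143-3p at 11669 and 9662 CPM, against 11268 to 13392 CPM. The part of such cell markers in the level of miR-146a-5p was not tested. The pattern most like that of miR-146a-5p was that of miR-126a-3p, with a Pearson correlation of 0.86 over 6 libraries, the highest among 258 candidates. This value draws on the same low libraries by which miR-126a was picked, so it adds no separate support. Second was miR-200c-3p (0.84), at 4.26 and 5.29 CPM in these 2 libraries, against 15.8 to 87.9 CPM. The endocrine marker miR-375 was lowest there too, at 2.51 and 6.08 CPM, against 7.16 to 77.5 CPM. The other markers of the endocrine list, miR-7a and miR-7b, were not lowest in both. There miR-7a-5p stood at 59654 and 41186 CPM, against 49472 to 58633 CPM, and miR-7b-5p at 65.2 and 44.7 CPM, against 48.9 to 80.2 CPM. The log2 fold change of miR-146a-5p was -0.40 ± 0.59 (SE, n = 3 per group; edgeR adjusted p 0.751), and its sign turned without untreated replicate 1 (0.13). It was -0.02 without taurocholate replicate 2, -0.76 without untreated replicate 2 and -0.74 without taurocholate replicate 3. There were 79.8, 435 and 100.3 reads of miR-146b-5p for each read of miR-146a-5p in the untreated libraries and 107, 325 and 84.5 with taurocholate.

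A further 2708 reads matched both miR-146 precursors equally. They gave 130.3, 163 and 126 CPM in the untreated against 95.7, 131 and 135 CPM in the taurocholate libraries, more than the exclusive miR-146a-5p reads in every library. The groups overlapped (log2 fold change -0.24 ± 0.25, SE; edgeR adjusted p 0.646). This value was -0.012 without taurocholate replicate 1, -0.09 without untreated replicate 2 and -0.44 without taurocholate replicate 2. Reads of at most 17 nt, which end before the first differing base, made up 902 of them. Of the 1806 longer ones, 1762 carried G18A relative to miR-146a and so the miR-146b base there. The most frequent, with 1705 reads, is shown because it decides how these reads are named. It differs from miR-146a by G18A and from miR-146b by C21T, at its last base, with the seed in capitals:
shared miR-146 read: tGAGAACTgaattccataggt
Counting these reads in full for miR-146a-5p would therefore raise its level from 807 to 3515 reads with sequences of which most hold a miR-146b base.

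The difference in miR-155-5p was within the spread between libraries. It stood at 320.2, 323 and 400.1 CPM in the untreated libraries, against 372, 232 and 358 CPM with taurocholate, where library 2 was the lowest of all 6 and the others lay among the untreated ones. The log2 fold change was -0.19 ± 0.13 (SE, n = 3 per group; edgeR adjusted p 0.510), with a 95% interval from -0.51 to 0.13. It was -0.09 without taurocholate replicate 2, -0.12 without untreated replicate 3 and -0.23 without taurocholate replicate 3. The passenger arm miR-155-3p had 20, 32 and 17 reads in the untreated against 35, 60 and 36 in the taurocholate libraries. In CPM this was 6.51, 8.03 and 6.09 against 10.5, 15.9 and 9.90, so every taurocholate library lay above every untreated one. Groups without overlap in CPM, in either direction, came in 47 of the 342 features tested (13.7%). The log2 fold change of miR-155-3p, 0.80 ± 0.36 (SE), had an edgeR adjusted p of 0.319 and a 95% interval from -0.06 to 1.66. With 1 library left out, it ran from 0.39 (without taurocholate replicate 2) to 0.997 (without taurocholate replicate 1). The interval lay above 0 without taurocholate replicate 1 or 3, with edgeR adjusted p of 0.287 and 0.293. It also did with library totals and without a filter. With error-free reads the value was 0.50, with an interval from -0.64 to 1.63.

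The main arms of the pair of miR-221 and miR-222 also did not differ beyond their spread. miR-221-3p stood at 3491, 4353 and 4525 CPM in the untreated against 4509.6, 2754 and 4462 CPM in the taurocholate libraries, of which library 2 was the lowest. Its log2 fold change was -0.15 ± 0.11 (SE; edgeR adjusted p 0.510), with a 95% interval from -0.41 to 0.11. It was -0.04 without taurocholate replicate 2, -0.08 without untreated replicate 2 and -0.21 without taurocholate replicate 3. miR-222-3p stood at 3136, 3441 and 3368 CPM and, with taurocholate, at 2382, 2506 and 3343 CPM. Libraries 1 and 2 of the taurocholate group lay below all untreated ones, and the third among them. The log2 fold change was -0.32 ± 0.17 (SE; edgeR adjusted p 0.391), with a 95% interval from -0.72 to 0.08. With 1 library left out, it ran from -0.41 (without taurocholate replicate 3) to -0.14 (without taurocholate replicate 1). Reads of miR-221-3p per read of miR-222-3p were 1.11, 1.26 and 1.34 in the untreated against 1.89, 1.099 and 1.33 in the taurocholate libraries, with taurocholate library 1 apart from the rest. The log2 of this ratio differed by 0.18 (two-sided exact permutation p 0.7), and its sign turned without taurocholate replicate 1.

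The 5p arms of this pair are the passenger strands. miR-221-5p stood at 294, 279 and 272 CPM in the untreated against 319, 257 and 272 CPM in the taurocholate libraries, a log2 fold change of -0.06 ± 0.15 (SE; edgeR adjusted p 0.882) whose sign depended on the scaling (0.003 with library totals). miR-222-5p stood at 50.5, 50.4 and 39.4 CPM and, with taurocholate, at 71.2, 44.7 and 58.3 CPM, with a log2 fold change of 0.22 ± 0.19 (SE; edgeR adjusted p 0.550), which was 0.41 without untreated replicate 1 and 0.08 without untreated replicate 3.

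Arm use within a library does not depend on the scaling between libraries. For miR-155, the 5p arm took 98.0%, 97.6% and 98.5% of the precursor's reads in the untreated against 97.3%, 93.6% and 97.3% in the taurocholate libraries. The taurocholate group lay below the untreated one by 1.97 percentage points, or 0.739 without taurocholate replicate 2. The 95% Wilson interval of that library was 91.9% to 95%, apart from all others, while the other 5 intervals overlapped. For miR-222, the 5p arm took 1.58%, 1.44% and 1.16% in the untreated against 2.90%, 1.75% and 1.71% in the taurocholate libraries, a group difference of 0.728 points, or 0.338 without taurocholate replicate 1. Both groups were apart (exact permutation test, two-sided, p 0.1), at the smallest p that 3 against 3 libraries allow, and 0.671 after Benjamini-Hochberg adjustment over 47 exact tests. Groups without overlap in arm share came in 26 precursors, 17.8% of those with enough reads. For miR-146b (5p share 99.7% to 99.9%) and miR-221 (5p share 5.67% to 8.52%) the groups overlapped.

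**Figure D3:**
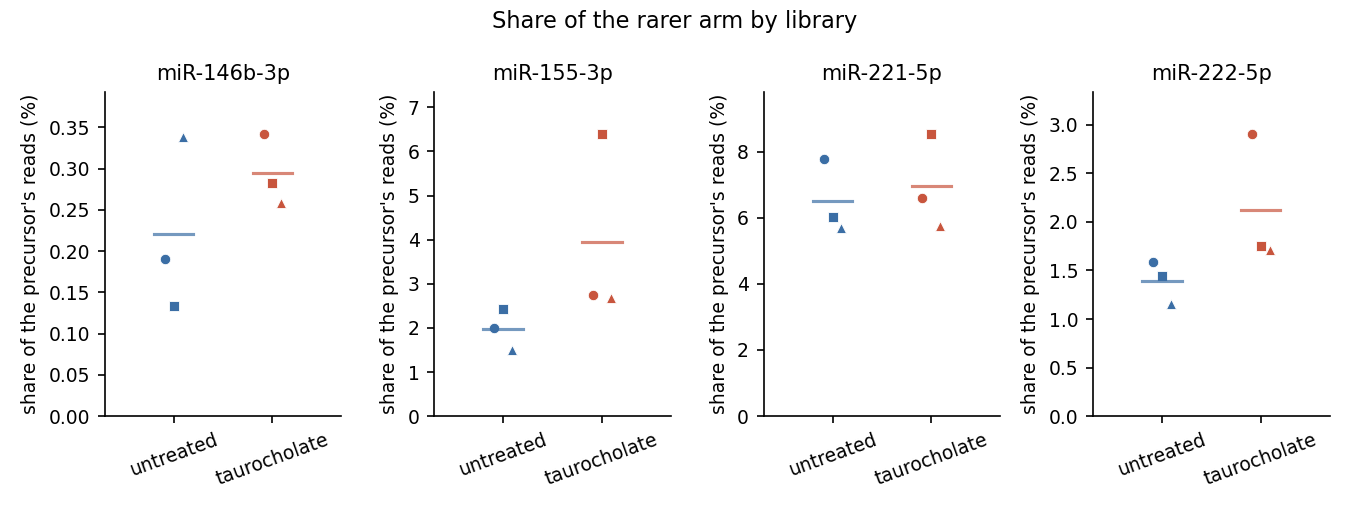
Share of the rarer arm among the reads of its precursor, in percent, by library. Points are libraries and bars are group means, and each panel has its own axis from 0. The groups do not overlap for miR-155-3p (1.499% to 2.43% untreated, 2.69% to 6.39% taurocholate) and miR-222-5p. Taurocholate library 2 is the highest for miR-155-3p and taurocholate library 1 for miR-222-5p.

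Read starts, which set the seed, were fixed in the main arms. The share of reads with the most frequent start was 99.8% to 99.9% for miR-146b-5p, 99.9% or more for miR-221-3p, 98.7% to 99.2% for miR-155-5p and 97.4% to 98.4% for miR-222-3p, each at the RefSeq start. The groups overlapped in start share for all 8 arms with at least 20 reads in every library, where 18 of 186 arms in all (9.68%) did not. In 2 passenger arms the reads mostly started elsewhere. The most frequent start of miR-222-5p lay 3 bases after the RefSeq start, in 52.9%, 54.7% and 50.0% of its untreated and 51.3%, 61.5% and 43.4% of its taurocholate reads. For miR-146b-3p it lay 2 bases before. The most frequent read of miR-222-5p is shown with one that starts as in RefSeq, because bases 2 to 8, in capitals, differ:
miR-222-5p, start shifted: tCAGTAGCcagtgtagatcctg
miR-222-5p, RefSeq start: gGCTCAGTagccagtgtagatc

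At the 3′ end, reads of several arms ran past the RefSeq end. The most frequent end lay 1 base after it for miR-155-5p, 3 bases after it for miR-221-5p and 4 bases after it for miR-222-3p, and at it for miR-146a-5p, miR-146b-5p and miR-221-3p. The most frequent error-free reads are shown for comparison with the RefSeq sequences:
miR-155-5p, 24 nt: tTAATGCTaattgtgataggggtt
miR-221-5p, 26 nt: aCCTGGCAtacaatgtagatttctgt
miR-222-3p, 25 nt: aGCTACATctggctactgggtctct

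The groups were apart in the share of the most frequent 3′ end in 2 of 8 arms, miR-146b-5p and miR-221-3p, beside 69 of 186 arms of all miRNAs (37.1%). In miR-146b-5p the most frequent end took 68.7%, 66.7% and 68.5% of reads in the untreated against 56.6%, 59.1% and 62.1% in the taurocholate libraries, all lower. In miR-221-3p it took 37.9%, 43.3% and 41.5% and, with taurocholate, 46.7%, 52.8% and 51.3%, all higher. The mean read length was lower in every taurocholate library for miR-146b-5p (a difference of -0.0976 nt from 23.5) and miR-155-5p (-0.278 nt from 23.5), and higher for miR-221-3p (0.0954 nt, from 22.6). Each of these had an exact permutation p of 0.1, adjusted 0.671. The other 6 arms, miR-155-5p, miR-221-5p and miR-222-3p among them, overlapped in end share. In length 3 of 8 arms were apart, beside 51 of 186 arms of all miRNAs (27.4%).

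The last base of the reads also differed between the groups, in miR-222-3p too, where end share and length had overlapped. This measure was added after the read ends had been seen. Among error-free reads of miR-146b-5p, 84.9%, 82.6% and 84.5% ended in T in the untreated against 63.5%, 70.9% and 74.6% in the taurocholate libraries. In miR-155-5p these shares were 86.6%, 83.9% and 83.6% against 63.2%, 75.5% and 74.9%. In miR-221-3p they were 58.0%, 48.3% and 52.7% against 39.6%, 41.9% and 44.6%, and in miR-222-3p 83.2%, 77.9% and 78.2% against 66.6%, 74.2% and 72.1%. All 4 arms were lower in every taurocholate library, as were 87 of 148 arms of all miRNAs (58.8%), with none higher. Over all other miRNAs, 81.4%, 74.0% and 76.3% of error-free reads ended in T in the untreated against 58.0%, 71.5% and 66.5% in the taurocholate libraries. Without taurocholate replicate 1, the differences of the 4 arms were -11.3, -9.49, -9.74 and -6.56 points.

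Pairs of reads with one start and 2 ends, also chosen after the read ends had been seen, show this within an arm. For miR-146b-5p, the pairs compare the most frequent read with one that lacks its last base and one that lacks its last 2:
main end: tGAGAACTgaattccataggctgt
other last base: tGAGAACTgaattccataggctg
same last base: tGAGAACTgaattccataggct
The read with another last base stood at 0.164, 0.176 and 0.160 reads per read of the main end in the untreated against 0.514, 0.385 and 0.304 in the taurocholate libraries, a difference of 1.24 in log2 ratio. The read with the same last base stood at 0.180, 0.186 and 0.158 against 0.191, 0.166 and 0.161, which overlapped (log2 difference -0.01). In miR-155-5p the read with another last base was 21 nt long and the one with the same last base 23 nt, against 24 nt for the main end. Length and last base thus differ together in these pairs. The differences in log2 ratio were 1.105, without overlap, and 0.04, with overlap. miR-222-3p gave 0.62, without overlap, and -0.01, with overlap. miR-221-3p, whose main end is a C, gave -0.61 for the read that ends in T, without overlap. miR-221-5p was the exception, since its pair with the same last base was lower in every taurocholate library (-0.23). Over all miRNAs the groups did not overlap in 55 of 86 pairs with another last base (64%) and in 7 of 59 with the same last base (11.9%). Whether the last base sets the differences in read ends was not tested.

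**Figure D4:**
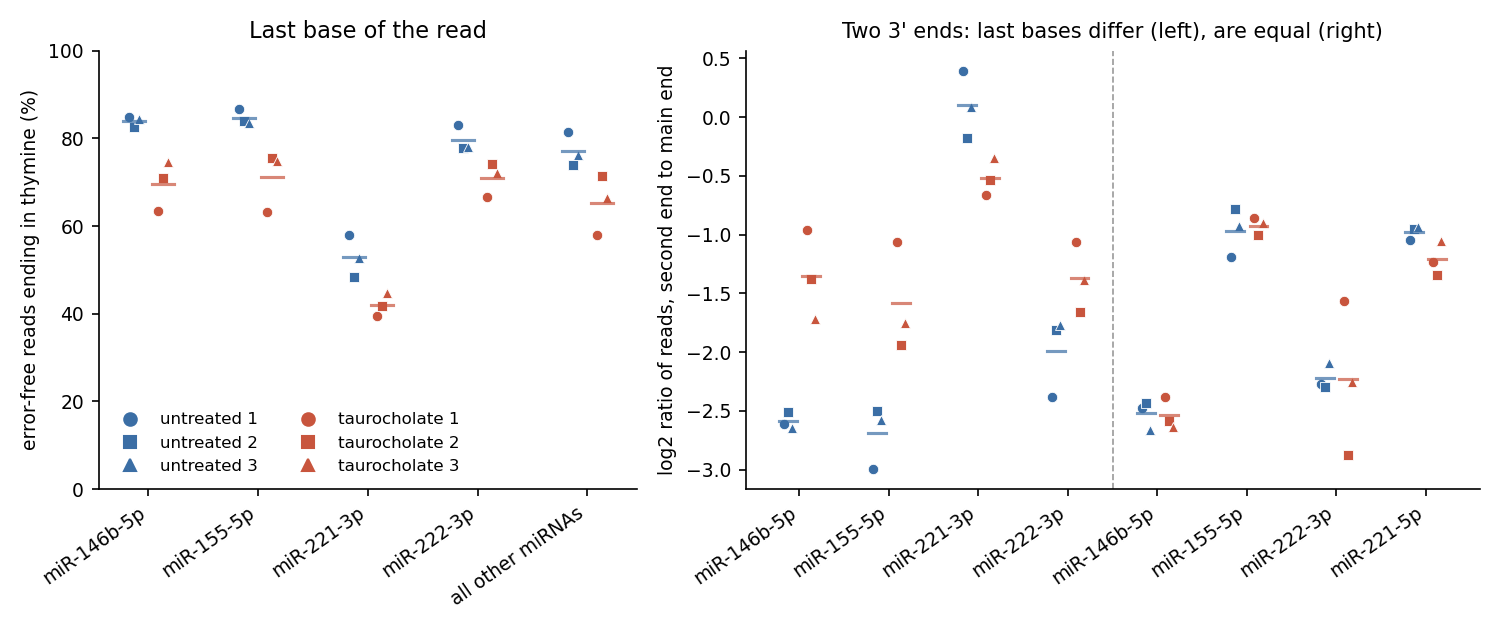
Left, percent of error-free reads whose last base is thymine, for the 4 main arms and for all other miRNAs. Right, log2 ratio of the second 3′ end to the main end of an arm, where the last bases differ (left of the dashed line) or are equal (right of it). Points are libraries and bars are group means: all 4 arms are lower with taurocholate on the left, and on the right the groups are apart in 4 of 4 pairs with another last base and in 1 of 4 with the same one.

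Single read sequences gave no call either. Of 4825 sequences tested in all miRNAs, edgeR called 0 (0%), with 885 at an unadjusted p under 0.05, and DESeq2 called 0 (0%). The 205 sequences of these precursors split by their last base. Of 34 that end in G, 33 were higher with taurocholate, median log2 fold change 0.996. Of 102 that end in T, 84 were lower, median -0.36. Of 37 that end in C, 24 were lower, median -0.42, and of 32 that end in A, 28 were higher, median 0.28. Over all miRNAs, 875 of 889 sequences ending in G were higher and 1712 of 2192 ending in T were lower, while those ending in C were 430 higher and 393 lower and 834 of 921 ending in A were higher. The smallest adjusted p among the 205 was 0.225 by edgeR. These sequences include reads with a mismatched last base, where taurocholate library 1 stood apart in G. Of error-free reads of all other miRNAs, 14.6%, 7.29% and 8.90% ended in G with taurocholate, against 4.73%, 6.16% and 5.80% untreated. The median over all sequences went from 0.09 to -0.11 without taurocholate replicate 1. The split by last base was not repeated without that library.

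Alignments allow 1 mismatch, and the share of reads that carry one was 31.5% to 53.8% in the 4 main arms. Most of these mismatches lay at the last base in miR-146b-5p, miR-221-3p and miR-222-3p. The same held for miR-155-5p except in untreated library 1, with 203 of 412 mismatched reads. Taurocholate library 1 had the highest share of reads with a mismatch in all 4 arms. The groups overlapped in 8 of 8 arms, both for all mismatches (25 of 186 arms apart in all, 13.4%) and for those at the last base (35 of 186, 18.8%).

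One mismatch in miR-155-5p lies inside the seed. Counted from the 5′ end of the read, A3C was carried by 10.3%, 10.0% and 8.33% of its reads in the untreated against 9.16%, 9.22% and 10.2% in the taurocholate libraries, with overlapping groups. Among the most frequent internal mismatch of each of 131 arms with at least 1000 reads, it ranked 4 by its share of 9.56% over all libraries, while miR-146b-5p, miR-221-3p and miR-222-3p had at most 0.955%. The most frequent such read is shown with the changed base in capitals:
miR-155-5p with A3C: ttCatgctaattgtgataggggtt
It had 217 of the 651 reads with this change, which fell on 7 sequences. Its first 18 bases occur in 0 of 419 RefSeq rat miRNA hairpins, and with the RefSeq base at that position in 1. No read with A3C aligned to another precursor. Both the comparison and the ranking were added after the mismatches had been seen.

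Other inflammation-linked miRNAs, a list of 26 chosen from general knowledge, gave 38 arms tested. None was called by edgeR. Over all features, 156 were above and 186 below 0, with a median log2 fold change of -0.04. Of the 38 arms, 25 were above and 13 below 0, with a median of 0.06. miR-21-5p, the most abundant of them, stood at 231391 CPM on average with a log2 fold change of 0.31 (edgeR adjusted p 0.290). The smallest p was that of miR-9a-5p, an NF-κB-induced miRNA, at 0.58 (adjusted p 0.141 by edgeR). Next came miR-27b-5p, rare at 9.45 CPM on average, at 0.88 (adjusted p 0.152 by edgeR). miR-34a-5p and miR-21-5p were the features most like miR-155-5p and miR-155-3p in their pattern over 6 libraries, each with a Pearson correlation of 0.96. For miR-146b-5p this was miR-423-5p (0.94), for miR-221-3p miR-652-3p (0.95) and for miR-222-3p miR-128-3p (0.97). These are the highest of 258 candidates each and describe shared spread between 6 libraries.

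With 3 libraries per group, the 95% intervals of 8 of the 10 features in the unpaired edgeR fit lay within a 2-fold change in either direction. Those of miR-146a-5p (-1.80 to 0.996 on the log2 scale) and miR-155-3p (-0.06 to 1.66) reached past 2-fold in one direction. Within 1.5-fold lay 3 features, miR-155-5p, miR-221-3p and miR-221-5p. The intervals of miR-146b-5p and miR-222-3p reached past a 1.5-fold decrease, which these libraries neither show nor exclude. The reads were 16 to 28 nt long, so primary transcripts such as Mir155hg and whole hairpins were not measured. At 1 time of 30 min, the comparison covers mature miRNA levels at that time and holds no later response, and CPM values cannot tell a change of these miRNAs from one in the rest of the miRNA pool.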

How the data were processed

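Small RNA was sequenced from 6 AR42J libraries. The submitters' processing notes name FastQC, cutadapt and Novoalign 2.07.11. A genome build is not given in the sources used here. As deposited, the values are read counts. Per the file headers, every line places a distinct read on a miRNA precursor, with its count and up to 1 mismatch. Each read was counted once per library. The arm was set by the middle of the RefSeq hairpin, found for 320 of 383 precursors and for all 5 followed here. For the rest it was set by the middle of the span up to the furthest read end. Positions in the files are offset by 5 nt to the hairpins (264 of 266 precursors checked), and reads matching several miRNAs formed shared features. This gave 661 features and 53526 read sequences. CPM are reads per 1000000 miRNA reads, without TMM factors.

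Groups were compared with edgeR 4.0.16 (R 4.3.3; quasi-likelihood test, TMM, filterByExpr, Benjamini-Hochberg, adjusted p under 0.05), which was tested on simulated data, and with DESeq2 1.42.0. Shares and ratios were compared by exact permutation tests (SciPy) where every library had at least 20 reads. Intervals of shares (Wilson, 95%) and the floor of 3 counts cover counting error only, since reads carry no molecular identifiers. Library pairs within a group differed beyond counting noise (chi-square per degree of freedom at least 47.1). Same-numbered libraries deviated together (r = 0.289, 0.635 and 0.196), although untreated 1 and taurocholate 3 gave 0.422. Their numbers paired them only in the replicate block, an alternative fit, and all main tests were unpaired.

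Every arm of the 5 precursors is named, with up to 3 read sequences per arm and, as like patterns, tested features of at least 10 CPM. The members, lists and tests were chosen with earlier results of these data known. Alternatives were other scalings, filters, mismatch and length limits, counting of shared reads, the replicate block and leaving out each library.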

Additional observations from a re-analysis of the deposited data

How the results depend on the processing

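Of 47 results (calls, fold changes, shares and ratios), 32 did not change direction under any alternative run. The count of miRNA features called by edgeR stayed at 0 under all its settings, while DESeq2 called 20, or 34 with a local dispersion trend, 10 without the filter and 29 with both, the last 3 chosen after seeing the data. None of these calls was a member. With libraries left out, 0 to 1 read sequences were called, the 1 without untreated replicate 2. The replicate block changed no call: 0 features and 0 sequences, with log2 fold changes of -0.41 for miR-146b-5p and 0.76 for miR-155-3p.

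Values changed sign as follows. The log2 fold change of miR-221-5p was 0.00303 with library totals and 0.00908 without a filter, and -0.12 to 0.11 with libraries left out. On leaving out libraries, miR-146a-5p ran from -0.76 to 0.13, miR-146b-3p from -0.0091 to 0.36, the 5p share of miR-221 from -0.316 to 1.11 points, the log2 ratio of miR-221-3p to miR-222-3p from -0.0301 to 0.36 and that of miR-146a-5p to miR-146b-5p from -0.68 to 0.67. The start share of miR-155-5p ran from -0.0332 to 0.169 points and the mismatch share of miR-146b-5p from -0.919 to 6.23. The pairs with the same last base ran from -0.0884 to 0.0353 (miR-146b-5p), -0.0719 to 0.14 (miR-155-5p) and -0.34 to 0.31 (miR-222-3p). Allowing ends within 1 nt gave -0.0198 and -0.0458 points for the start shares of miR-146b-5p and miR-155-5p and 0.447 for the end share of miR-146b-5p. Leaving out last-base mismatches gave -0.783 (miR-221-3p) and -0.654 points (miR-222-3p). The cause was not tested in any of these. Depth limits miR-155-3p and miR-146b-3p, with 17 to 60 reads per library.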
